A study of Drosophila melanogaster with 30 samples.

Results

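Small heat shock proteins bind partly unfolded proteins and hold them in a state from which other chaperones can refold them. In Drosophila melanogaster the heat shock factor Hsf switches on their genes during stress, together with Hsp68, an inducible member of the Hsp70 family. Hsp83, the fly Hsp90, is abundant in unstressed cells and holds kinases and steroid hormone receptors ready for signalling. Several of these genes are also known to be transcribed with no stress, in nurse cells of the ovary, in the testis, in glia and neurons, and in late larvae under the moulting hormone ecdysone.

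The 8 genes described here were the rows of the deposited count files whose FlyBase symbol was Hsp22 (FBgn0001223), Hsp23 (FBgn0001224), Hsp26 (FBgn0001225), Hsp27 (FBgn0001226), Hsp67Ba (FBgn0001227), Hsp67Bc (FBgn0001229), Hsp68 (FBgn0001230) or Hsp83 (FBgn0001233). They were 8 of 16868 genes counted, and all 8 were found. Hsp68 lies on chromosome arm 3R and the other genes on 3L, where the 6 small heat shock protein genes are neighbours in 1 cluster (Ensembl annotation, BDGP6).

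The study measured polyadenylated RNA in 30 libraries, 2 for each of 15 groups, to ask how an additional Y chromosome alters gene expression. Females were XXYohio or XXYcongo, carrying a Y chromosome named Yohio or Ycongo, with XX females as controls, and each of these genotypes was sampled as ovary and whole body at 2 days of age and as the central nervous system (CNS) of third-instar larvae. Males were XYYohio or XYYcongo, with XY males as controls, sampled as testis and whole body at 2 days of age. The labels name no heat shock for any group. The labels write the female and male backgrounds with a notation often used for attached chromosomes, which they do not explain, and they do not name the Y chromosome that XY males carry. The 2 libraries of a group are called biological replicates, but how far apart their flies were raised or collected is not said, and p-values here measure only the spread between libraries, which may be technical.

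Library totals ran between 6026258 and 15363636 counts. Several marker lists fitted the tissue labels. The summed level of 6 male germ line markers was 2252 to 3346 CPM (counts scaled to a common library size) in testis. It was at most 7.30 CPM in larval CNS, 6.05 CPM in ovary and 13.1 CPM in female bodies. Follicle cell and eggshell markers summed to 2179 to 5885 CPM in ovary and at most 0.400 CPM in larval CNS. Nervous system markers summed to 1154 to 1662 CPM in larval CNS and 5.57 to 28.9 CPM in ovary, but to 569 to 1490.2 CPM in male bodies. Other lists separated less: female germ line markers summed to 882 to 1271 CPM in testis, and fat body markers to 2018 to 3957 CPM in ovary. The share of mitochondrially encoded counts varied most in whole bodies, 9.37% to 40.11% in males and 5.21% to 33.49% in females. CPM values below are scaled by trimmed mean of M values (TMM) over all 30 libraries.

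Overlapping annotation limits 2 of the 8 genes. All exon bases of Hsp22 (100%) also belong to CG4456, listed under the older name Hsp67Bb, on the same strand. The counts of both were equal in all 6 larval CNS, all 6 female body and 5 of 6 ovary libraries, while CG4456 exceeded Hsp22 by 113 to 264 counts in each testis library and by 13 to 42 counts in each male body library. Reads of Hsp22 and CG4456 therefore cannot be told apart. For Hsp67Ba, 75.9% of exon bases are shared with the antisense RNA asRNA:CR43481, and whether counting used the strand is not given in the sources used here. Reads of Hsp67Ba and its antisense partner cannot be told apart either.

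**Figure D1:**
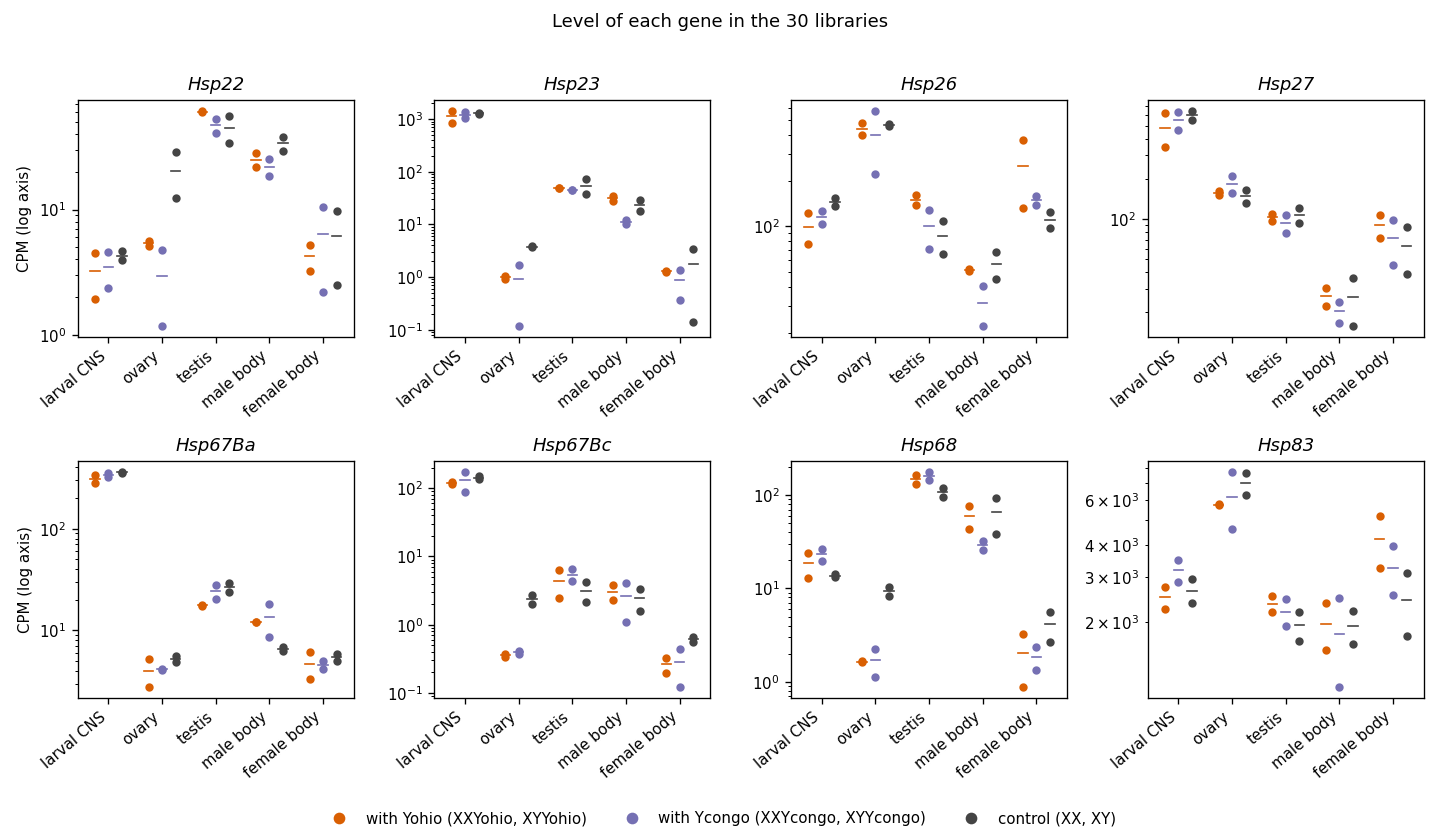
CPM on a log axis for each of the 8 genes in all 30 libraries, by tissue, with 1 point per library and a bar at the mean of each group of 2. Hsp23, Hsp27, Hsp67Ba and Hsp67Bc were highest in larval CNS, and Hsp26 and Hsp83 in ovary. Hsp68 and the count of Hsp22, whose reads cannot be told apart from those of CG4456, were highest in testis.

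Larval CNS held 3 small heat shock protein transcripts at levels far above those of any adult sample. Hsp23, which encodes a cytosolic small heat shock protein, had 1446 and 858 CPM in XXYohio CNS, 1358 and 1049.9 CPM in XXYcongo CNS, and 1245 and 1331 CPM in XX CNS. In adult tissues its highest library reached 3.85 CPM in ovary, 71.5 CPM in testis, 34.6 CPM in male bodies and 3.41 CPM in female bodies. The lowest CNS library stood above every adult library. Averaged over genotypes, Hsp23 was 938-fold higher in larval CNS than in female bodies (log2 fold change 9.87, SE 0.57; adjusted p = 4.18e-12, edgeR quasi-likelihood test with Benjamini-Hochberg adjustment over 14384 genes, as for all tissue comparisons below). The female body value rests on few counts, 2 to 41 per library.

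Hsp67Bc, which is known to act with the co-chaperone starvin in clearing misfolded proteins, spanned 87.3 to 173 CPM over the 6 CNS libraries, with a median of 129 CPM. It reached at most 2.70 CPM in ovary and 0.664 CPM in female bodies, which held 1 to 8 counts per library. The difference was 345-fold between larval CNS and female body (log2 fold change 8.43, SE 0.40; adjusted p = 3.19e-13, edgeR). Hsp67Ba, a further small heat shock protein gene of the cluster, had 279.9, 344 and 361 CPM as lowest, median and highest CNS value, against 3.29, 5.02 and 6.14 CPM in female bodies. It was 68.0-fold higher in CNS (log2 fold change 6.09, SE 0.24; adjusted p = 1.34e-14, edgeR), and its antisense partner asRNA:CR43481 was also high there, at 210.2, 261 and 277 CPM, against 5.48, 8.44 and 9.17 CPM in female bodies.

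Hsp27, a small heat shock protein found mainly in the nucleus, was less restricted. Its CNS libraries spanned 345 to 649 CPM, above every library of ovary (132 to 209 CPM), testis (78.1 to 122 CPM), male body (15.8 to 35.9 CPM) and female body (38.7 to 107 CPM). None of these adult ranges for Hsp27 overlapped that of CNS. Its fold change between CNS and female body was 7.35 (log2 2.88, SE 0.27; adjusted p = 5.48e-09, edgeR), and between CNS and ovary 3.35 (log2 1.75, SE 0.26; adjusted p = 4.22e-06, edgeR). Hsp68 was also higher in CNS than in female body, at 17.1 CPM against 2.50 CPM by median (log2 fold change 2.83, SE 0.31; adjusted p = 6.56e-08, edgeR).

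In all, 5 of the 8 genes passed the test higher in larval CNS than in female body and 0 lower, where 31.7% of all genes tested were called higher and 31.3% lower. Hsp22, Hsp26 and Hsp83 did not pass, with log2 fold changes of -0.58, -0.44 and -0.22. Against ovary the same 5 genes were called higher in larval CNS and Hsp26 and Hsp83 lower (29.0% and 27.9% of all genes). Larval stage and nervous tissue were sampled together, so they cannot be told apart, and in bulk RNA a gene's lower level cannot be told apart from fewer cells of the type that expresses it. One XXYohio CNS library had a summed level of fat body markers of 5185 CPM, against 771 to 1615 CPM in the other 5 CNS libraries. Its Hsp23 and Hsp27 levels were the higher of the XXYohio pair, and the part of these markers in them was not tested. Without that library 5 of the 8 genes were called against female body and 8 against ovary. With XX libraries alone Hsp68 was not called between CNS and ovary (log2 0.55, adjusted p = 0.407, edgeR).

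The levels per kilobase of exon differ from this picture in which gene leads. In larval CNS, Hsp23 had the highest median per-kilobase level of the 8, 1457 CPM per kb or 45.1% of their sum, followed by Hsp83 with 952 CPM per kb. In ovary, testis, male body and female body the leading gene was Hsp83, with 78.3%, 68.5%, 83.5% and 85.0% of the sum, and the next was Hsp26. Hsp22 was the lowest of the 8 in CNS, and Hsp67Bc the lowest in the other tissues. Exon lengths came from an annotation whose build may differ from that of the authors.

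The genes most abundant in ovary were Hsp83, Hsp26 and Hsp27. Hsp83 had 5734 and 5783 CPM in XXYohio ovaries, 7736 and 4646 CPM in XXYcongo ovaries, and 6275 and 7694 CPM in XX ovaries. Its testis libraries spanned 1692 to 2531 CPM, below every ovary library, while female bodies, which contain ovaries, spanned 1769.9 to 5203 CPM and overlapped them. Hsp83 was 2.91-fold higher in ovary than in testis (log2 1.54, SE 0.25; adjusted p = 7.32e-06, edgeR) and 1.95-fold higher than in female body (log2 0.96, SE 0.24; adjusted p = 0.00204, edgeR). The call against female body was lost in edgeR with relative log expression scaling, the scaling of DESeq2, at adjusted p = 0.0802.

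Hsp26, a cytosolic small heat shock protein whose RNA is laid down in eggs, had 480.3 and 398 CPM in XXYohio ovaries, 574 and 219.7 CPM in XXYcongo ovaries, and 472 and 456 CPM in XX ovaries. It was 3.96-fold higher in ovary than in testis (log2 1.98, SE 0.27; adjusted p = 8.66e-07, edgeR) and 2.69-fold higher than in female body (log2 1.43, SE 0.27; adjusted p = 0.00011, edgeR). The ovary range lay above all testis libraries, which spanned 66.2 to 161 CPM, and overlapped that of female bodies through 1 XXYohio body of 370.3 CPM. Hsp27 was 2.19-fold higher in ovary than in female body (log2 1.13, SE 0.25; adjusted p = 0.000636, edgeR), with no overlap between the libraries.

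These were the 3 genes called higher in ovary than in female body, where 29.2% of all genes were called higher, and 0 were called lower (26.4% of all genes). With XX libraries alone Hsp22 and Hsp67Bc were called higher as well, at log2 1.74 and 1.94 (adjusted p = 0.0455 and 0.0149, edgeR), against 0.33 and 0.91 over all genotypes. Hsp23 was called higher without XX body replicate 2 (log2 1.36, adjusted p = 0.0269, edgeR), and Hsp67Ba lower with relative log expression scaling (log2 -0.54, adjusted p = 0.0335, edgeR). Against testis the same 3 were called higher (29.6% of all genes) and the other 5 lower (49.5% of all genes). The median of all genes between ovary and testis was -0.83 on the log2 scale, and relative to it Hsp26, Hsp83 and Hsp27 stood at 2.82, 2.37 and 1.52. The Hsp27 call between ovary and testis was lost under 4 alternatives, with adjusted p between 0.0622 and 0.384.

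Testis was the tissue of highest level for Hsp68 and for the count of Hsp22, whose reads cannot be told apart from those of CG4456. Hsp68 had 132 and 163 CPM in XYYohio testes, 177 and 144 CPM in XYYcongo testes, and 96.1 and 119 CPM in XY testes, against 1.12 to 10.4 CPM over the 6 ovary libraries. Every testis library also lay above every male body library, of which the highest had 93.0 CPM. Hsp68 was 46.2-fold lower in ovary than in testis (log2 -5.53, SE 0.34; adjusted p = 2.43e-12, edgeR), or -4.70 relative to the median of all genes. Within males it was 2.81-fold higher in testis than in body (log2 1.49, SE 0.28; adjusted p = 7.38e-05, edgeR).

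Hsp23 was the next of these, with 38.3 to 71.5 CPM in testis, against 0.118 to 3.85 CPM in ovary (log2 fold change of ovary over testis -5.08, SE 0.48; adjusted p = 2.68e-09, edgeR). The count of Hsp22, the small heat shock protein of mitochondria, gave 34.3 to 61.6 CPM in testis and 1.18 to 28.6 CPM in ovary. Its log2 fold change of ovary over testis was -2.89 (SE 0.41; adjusted p = 1.16e-06, edgeR), with the highest ovary library below the lowest testis library. CG4456 had 113 to 264 counts more than Hsp22 in each testis library, and its part in the Hsp22 count was not tested. Hsp67Bc and Hsp67Ba were lower in ovary than in testis by log2 values of -2.57 and -2.33 (adjusted p = 7.64e-07 and 7.94e-10, edgeR). With XX ovaries and XY testes alone, Hsp22 and Hsp67Bc missed the threshold, at -1.14 and -0.39 (adjusted p = 0.132 and 0.547, edgeR).

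Between testis and male body 6 genes were called higher, all but Hsp67Bc and Hsp83, and 0 lower, where 36.7% of all genes were called higher and 38.5% lower. The largest of these was Hsp27, which was 4.21-fold higher in testis (log2 2.07, SE 0.26; adjusted p = 6.39e-07, edgeR), with 78.1 to 122 CPM in testis and 15.8 to 35.9 CPM in male bodies. The Hsp22 call (log2 0.93, adjusted p = 0.0313, edgeR) was lost when XY body replicate 2, XYYohio body replicate 1, XYYcongo body replicate 1, XY testis replicate 1 or XYYcongo testis replicate 2 was left out, with adjusted p between 0.0643 and 0.0828. Reads of Hsp22 cannot be told apart from those of CG4456 here either. With XY libraries alone 2 genes were called, Hsp27 and Hsp67Ba. Other alternatives gave up to 8 calls, since Hsp67Bc and Hsp83 then passed as well.

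Male bodies differed from female bodies in all 8 genes: 5 were called higher and 3 lower, where 61.8% of all genes were called higher and 13.6% lower. The median of all genes was itself 1.26 higher in males, or 0.92 and 0.33 under 2 other scalings, so values are also given relative to it. Hsp68 had 25.7, 40.8 and 93.0 CPM as lowest, median and highest male body value, against 0.877, 2.50 and 5.59 CPM in female bodies (log2 fold change 4.26, SE 0.33, or 3.00 relative to the median; adjusted p = 1.85e-10, edgeR). Hsp23, Hsp67Bc and Hsp22 were higher by 3.96, 2.85 and 2.28, or 2.70, 1.59 and 1.02 relative to the median. CG4456 had 13 to 42 counts more than Hsp22 in each male body library, and their reads cannot be told apart. Hsp67Ba, at 1.06, stood at -0.20 relative to the median of all genes. It missed the threshold when mitochondrial genes were left out and without the filter on low counts (adjusted p = 0.628 and 0.354, edgeR). Hsp26, Hsp27 and Hsp83 were lower in males by log2 values of -1.83, -1.63 and -0.77, or -3.09, -2.89 and -2.03 relative to the median. With XY and XX bodies alone, Hsp26, Hsp67Ba and Hsp83 missed the threshold (adjusted p = 0.0907, 0.544 and 0.525, edgeR).

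**Figure D2:**
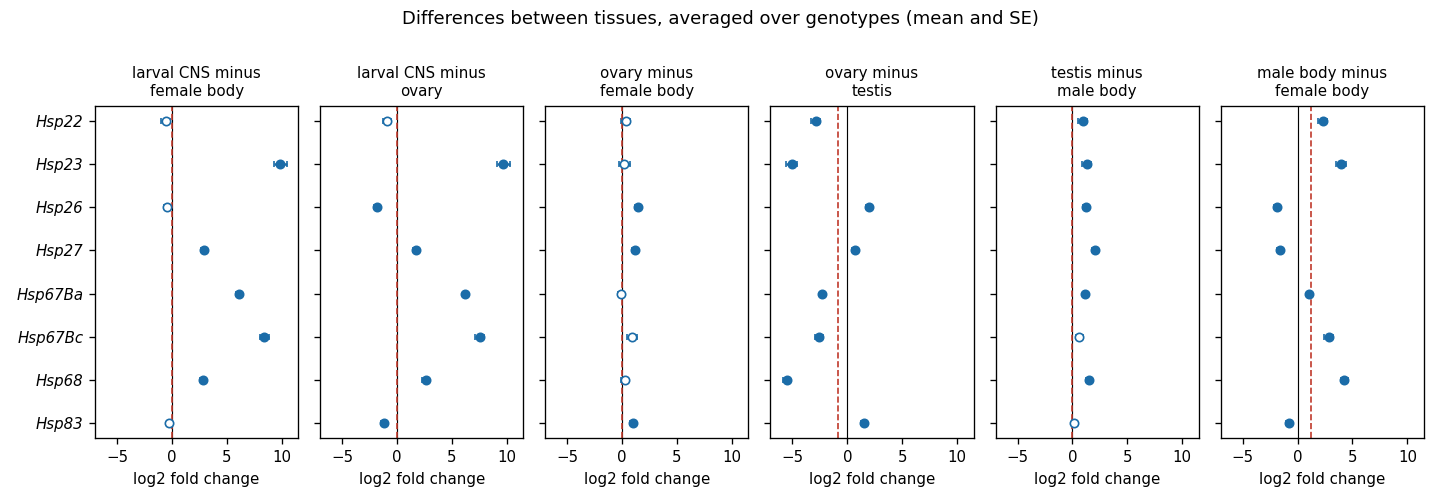
Log2 fold change of each gene in 6 comparisons of tissues, averaged over genotypes, with its standard error. Filled points passed the test, open points did not, and the dashed line marks the median of all 14384 genes. Hsp23, Hsp67Ba and Hsp67Bc stand farthest right in both larval CNS comparisons, and Hsp26, Hsp27 and Hsp83 lie right of 0 in ovary minus testis where the other 5 lie left.

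Other chaperone genes had tissue patterns of their own. Of 6 further small heat shock protein genes, 0 were higher in larval CNS than in female body and 4 lower, among them CG7409 (log2 -13.30, adjusted p = 6.1e-13, edgeR) and l(2)efl (log2 -5.49, adjusted p = 2.53e-11). CG7409 had 179 and 137 CPM in XX bodies, against 0 counts in both XX CNS libraries, so its fitted value is no bound. In ovary 5 of the 6 were lower than in female body, and in testis 5 were lower than in male body and 1, CG4456, higher. Reads of CG4456 cannot be told apart from those of Hsp22. Of all genes, 31.7% were called higher and 31.3% lower in larval CNS than in female body, and 26.4% lower in ovary than in female body. Of 12 Hsp70 cognates and chaperonins, 7 were higher in testis than in male body and 0 lower (36.7% and 38.5% of all genes). The mitochondrial chaperonin paralogs Hsp60B, Hsp60C and Hsp60D were among them, with log2 fold changes of 2.42, 2.46 and 1.82 (adjusted p = 3.57e-06, 1.71e-06 and 3.23e-06, edgeR).

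The Hsp90 family and its co-chaperones, the partners of Hsp83, were higher in gonads: 9 of 9 measured genes in ovary against female body, with a median log2 fold change of 1.24, and 9 of 9 in testis against male body, with a median of 0.97. Stip1, the co-chaperone that links Hsp70 and Hsp90, was higher by 1.24 in ovary (adjusted p = 5.88e-06, edgeR) and by 0.56 in testis (adjusted p = 0.00809, edgeR). In larval CNS 8 of 9 were higher than in female body and 0 lower, with a median of 1.00. The medians over all genes in these contrasts were 0.00, -0.01 and 0.00, and 29.2%, 36.7% and 31.7% of all genes were called higher.

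Hsf itself did not pass between ovary and female body (log2 0.26) or testis and male body (log2 0.06). It was higher in ovary than in testis (log2 1.49, adjusted p = 2.8e-05, edgeR) and lower in larval CNS than in female body (log2 -1.22, adjusted p = 0.000375, edgeR). Of 10 genes listed as Hsf and its stress-induced targets, 7 were higher in ovary than in female body and 2 lower (29.2% and 26.4% of all genes). The 6 Hsp70 genes were among the higher ones, with log2 fold changes of 2.31 to 2.55, but they are near-identical copies whose counts the authors' counting could split. Of 10 ecdysone regulators, 5 were higher in larval CNS than in female body and 2 lower (31.7% and 31.3% of all genes). Hr4, Eip78C, Eip75B and Eip74EF were higher, with log2 fold changes of 2.84, 2.54, 2.28 and 2.01 (adjusted p = 2.06e-07, 1.88e-07, 1.04e-08 and 9.2e-08, edgeR), whereas ftz-f1 and Hr3 were lower, at -3.33 and -1.68 (adjusted p = 6.37e-12 and 0.000348).

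Over the 15 groups, levels of a gene separated mainly by tissue, and neighbours in the order of group means usually overlapped. For Hsp23, 7 neighbouring pairs of groups had libraries that did not overlap and 7 had libraries that did. For Hsp83 only 1 pair was separate, XXYohio ovary above XXYohio body, and 13 overlapped. The other genes had 2 (Hsp26), 3 (Hsp27), 4 (Hsp22 and Hsp67Bc) or 5 (Hsp67Ba and Hsp68) separate pairs. Such pairs were not counted for all genes, so these numbers describe the order and cannot be read as a trait of any gene. The lowest group means were those of XXYohio ovary for Hsp68 and Hsp67Ba, XXYcongo ovary for Hsp22, XXYohio body for Hsp67Bc, XXYcongo body for Hsp23, and XYYcongo body for Hsp26, Hsp27 and Hsp83.

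In ovaries, 4 of the 8 genes were lower in every library with an added Y than in both XX libraries, as were 10.5% of all genes, though 0 of the 8 passed the test. Of these 4, Hsp67Bc passed the filter on low counts only through the XX libraries. Hsp68 had 1.68 and 1.61 CPM in XXYohio ovaries, 2.27 and 1.12 CPM in XXYcongo ovaries, and 8.38 and 10.4 CPM in XX ovaries. The 4 ovary libraries with a Y held 19 to 26 counts of Hsp68 and the XX libraries 92 and 127, with a wide gap between them. Its log2 fold change was -2.47 for Yohio (SE 0.55; unadjusted p = 0.00112, adjusted p = 0.520, edgeR over 8829 genes) and -2.46 for Ycongo (SE 0.55; unadjusted p = 0.00120, adjusted p = 0.136). Both Y comparisons share the XX libraries, so they are not independent of each other.

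The Hsp22 locus, counted together with CG4456, had 5.63 and 5.14 CPM in XXYohio ovaries, 4.72 and 1.18 CPM in XXYcongo ovaries, and 28.6 and 12.4 CPM in XX ovaries. The XX libraries stood far apart from each other, but the lower of them was above all 4 with a Y. Log2 fold changes were -1.90 for Yohio (SE 0.65, adjusted p = 0.704, edgeR) and -2.79 for Ycongo (SE 0.68, adjusted p = 0.174). Without the higher XX library the values were -1.13 and -1.99.

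Hsp67Bc had 0.336 and 0.371 CPM in XXYohio ovaries, 0.378 and 0.414 CPM in XXYcongo ovaries, and 2.00 and 2.70 CPM in XX ovaries. These rest on 4 to 7 counts per library with a Y and on 22 and 33 counts in XX. Only the XX libraries exceeded the filter's minimum count of 10. Hsp67Bc was thus tested through the group where it was high, and its lower values cannot serve as support. Its log2 fold changes were -2.67 (SE 0.69, adjusted p = 0.704, edgeR) and -2.54 (SE 0.69, adjusted p = 0.214). Hsp23 had 0.924 and 1.05 CPM in XXYohio ovaries, 1.70 and 0.118 CPM in XXYcongo ovaries, and 3.74 and 3.85 CPM in XX ovaries. Its log2 fold changes were -1.90 (SE 0.92, adjusted p = 0.706, edgeR) and -2.07 (SE 0.94, adjusted p = 0.466). The lowest Hsp23 library had 2 counts, under the 3 taken as the detection limit of a library. Leaving out the other XXYcongo library made its value -4.98 and leaving out this one -1.05.

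For the other 4 genes the libraries with a Y overlapped the XX libraries for at least 1 Y chromosome. Hsp83 had log2 fold changes of -0.24 and -0.14 for Yohio and Ycongo, Hsp26 of -0.04 and -0.18, Hsp27 of 0.10 and 0.28, and Hsp67Ba of -0.38 and -0.35 (adjusted p between 0.748 and 0.987, edgeR). Their standard errors ran from 0.27 to 0.47. For XXYcongo, Hsp26 and Hsp83 differed widely between the 2 ovary libraries (574 and 219.7 CPM, 7736 and 4646 CPM).

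By edgeR, 0 of the 8 genes were called for either Y in ovary, where the test called 0.0113% of all genes for Yohio and 0.283% for Ycongo. At an unadjusted p under 0.05, 3 of the 8 were lower for each Y, where 4.53% of all genes were lower for Yohio and 6.66% for Ycongo. Each Y had 5 of 8 genes lower with no overlap between its libraries and the XX libraries, where 23.8% and 18.5% of all genes were. The 4 genes that lay below both XX libraries in all 4 libraries with a Y compare with 10.5% of all genes. Each of these counts of lower genes includes Hsp67Bc, which passed the filter only through the XX libraries. Ycongo against Yohio called 0 of the 8 in ovary, where edgeR called 0.0113% of all genes. DESeq2 called 1 gene for Yohio, Hsp68 (adjusted p = 0.0135), and 2 for Ycongo, Hsp22 (adjusted p = 0.00230) and Hsp68 (adjusted p = 0.00377). The authors' deposited table, made with DESeq2, labels 1 female genotype XXYcs, read here as XXYohio. In its ovaries Hsp22 has a log2 fold change of -1.28 (adjusted p = 0.0064) and Hsp68 of -1.53 (adjusted p = 0.000567). In XXYcongo ovaries the authors' table gives -1.62 (adjusted p = 0.00753) and -1.51 (adjusted p = 0.0161) for those genes. Hsp23 and Hsp67Bc have adjusted p = 0.661 and 0.415 there for XXYcongo, and no adjusted p for XXYohio. The authors' fold changes come from another tool than the edgeR values, so their sizes are not compared.

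Leaving out single XXYcongo libraries changed the calls. Without XXYcongo replicate 1, 1 gene was called for Yohio and 3 for Ycongo (Hsp22, Hsp23 and Hsp68). Without XXYcongo replicate 2, 2 were called for Yohio (Hsp22 and Hsp68) and 1 for Ycongo (Hsp22). All such calls were lower. Either way the Ycongo arm was then 1 library, for Hsp23 without replicate 1 the library of 2 counts, and that library was assumed to vary like the other groups. The XX ovaries also had more mitochondrially encoded counts, with 4.82% and 6.61% in XXYohio, 1.81% and 4.17% in XXYcongo, and 12.79% and 8.18% in XX. The 6 nervous system markers, 1 of them at 0 in both XXYohio libraries, summed to 7.81 and 9.35 CPM in XXYohio, 5.57 and 26.7 CPM in XXYcongo, and 28.9 and 14.7 CPM in XX ovaries. The 5 muscle markers summed to 401 and 403 CPM in XXYohio, 569.8 and 676 CPM in XXYcongo, and 692 and 558 CPM in XX ovaries. The 6 follicle cell and eggshell markers summed to 5885 and 4221 CPM in XXYohio, 5190.2 and 3062 CPM in XXYcongo, and 2179 and 4091 CPM in XX ovaries. The 5 female germ line markers summed to 3583 and 4784 CPM in XXYohio, 4338 and 5513 CPM in XXYcongo, and 7239 and 5325 CPM in XX ovaries. Of these 5, 5 had negative log2 fold changes for Yohio (median -0.47) and 4 for Ycongo (median -0.27), with 0 called. The part of these markers in the ovary differences was not tested. With mitochondrial genes left out, the log2 fold changes of Hsp68 and Hsp22 were -2.49 and -1.93 for Yohio and -2.46 and -2.80 for Ycongo.

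**Figure D3:**
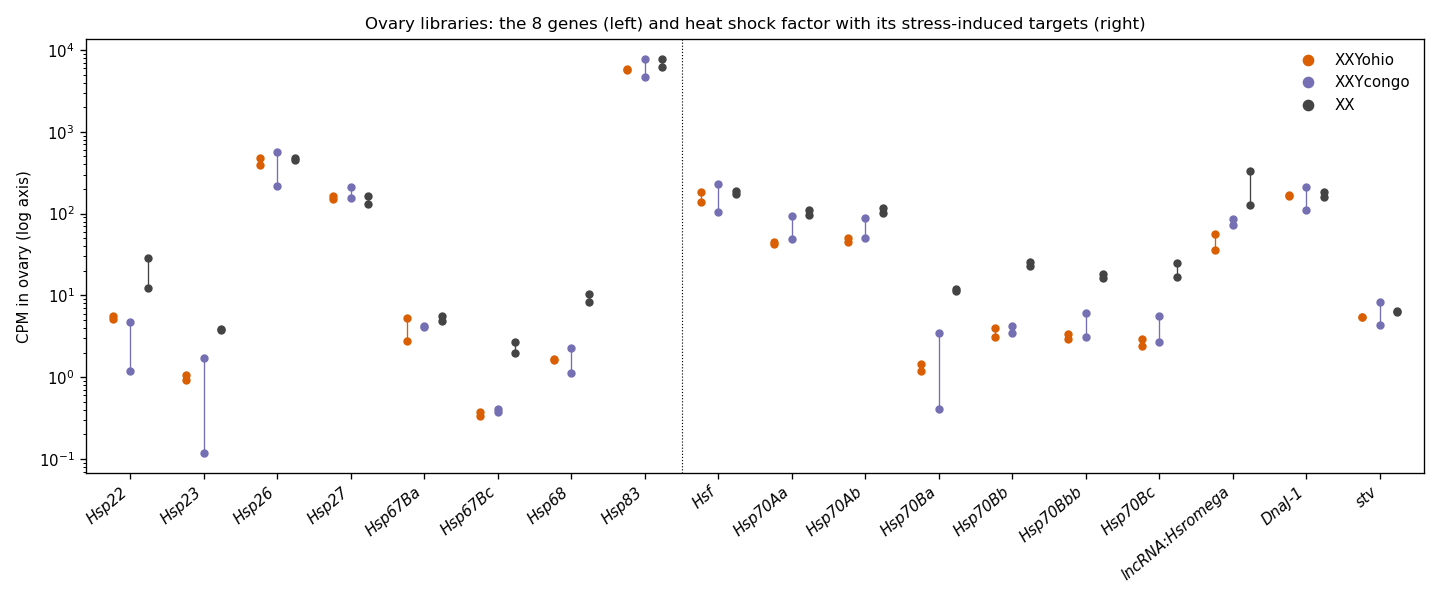
CPM on a log axis in the 6 ovary libraries, joined in pairs, for the 8 genes (left of the dotted line) and for Hsf and its stress-induced targets (right). Hsp22, Hsp23, Hsp67Bc, Hsp68 and the Hsp70 genes lie lower in XXYohio and XXYcongo than in XX ovaries, while for Hsp26, Hsp27, Hsp83 and Hsf the ranges of XXYcongo and XX ovaries overlap.

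Other stress-induced genes had negative values in the same comparisons. Of the 10 genes listed as Hsf and its targets, 10 had negative log2 fold changes for Yohio and 10 for Ycongo. Their medians were -1.77 and -1.11, where the median of all genes was 0.03 and 0.05. The Hsp70 genes among these 10 are near-identical copies whose counts the authors' counting could split. The counts and medians therefore partly repeat 1 family. The share of all genes with negative values is not given, so these counts are a description. Only Hsp70Bb, 1 of the near-identical Hsp70 copies, passed, for Ycongo: it had 4.25 and 3.49 CPM in XXYcongo and 25.8 and 22.7 CPM in XX ovaries (log2 fold change -2.64, SE 0.40; adjusted p = 0.0408, edgeR). For Yohio the log2 fold change of Hsp70Bb was -2.75 (adjusted p = 0.214, edgeR). Hsf did not differ beyond its error, with 137 and 184 CPM in XXYohio, 104 and 232 CPM in XXYcongo, and 172 and 190.2 CPM in XX ovaries (log2 -0.15 and -0.14, SE 0.34 each). The starvin gene stv (log2 -0.19 and -0.01) and DnaJ-1 (log2 -0.01 and -0.12) also lay near 0.

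Among constitutive chaperones in ovaries with an added Y, the 9 measured genes of the Hsp90 family and co-chaperones had medians of 0.30 for Yohio and 0.01 for Ycongo, and the 8 tested Hsp70 cognates and chaperonins had medians of 0.00 and -0.05, with 0 called in either list. The 3 tested further small heat shock protein genes, CG4456, l(2)efl and CG14207, had values below 0 for both Y chromosomes, with 0 called. CG4456 is no observation separate from Hsp22, since the counts of both were equal in 5 of 6 ovary libraries. Of 10 ecdysone regulators, 9 lay below 0 for Yohio and 7 for Ycongo, with medians of -0.53 and -0.33 and 0 called.

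**Figure D4:**
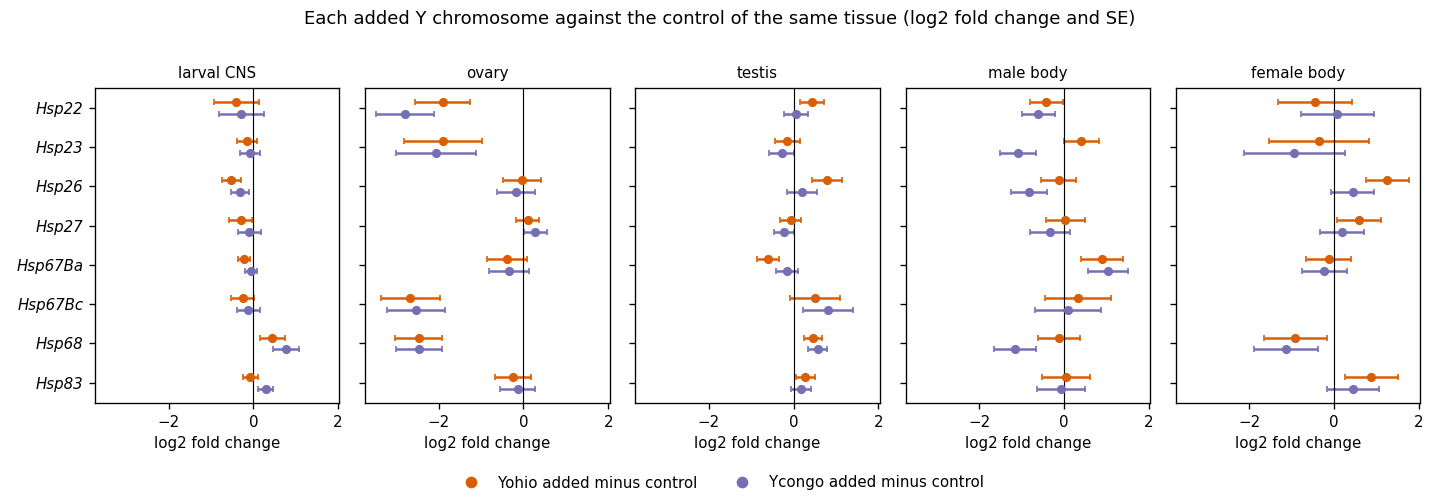
Log2 fold change of each gene with its standard error for Yohio and Ycongo against the control of the same tissue. Hsp22, Hsp23, Hsp67Bc and Hsp68 lie left of 0 in ovary by 1.90 or more, and Hsp67Bc was not tested in female body. No point passed the test.

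Outside the ovary 0 of the 8 genes were called for an added Y, or for Ycongo against Yohio, by edgeR or by DESeq2. The share of all genes called by edgeR was 0.0403% for Yohio, 0.0101% for Ycongo and 0.0302% for Ycongo against Yohio in larval CNS, and 0% in testis, male body and female body. At an unadjusted p under 0.05 the values were those of Hsp26 for Yohio and Hsp68 for Ycongo in CNS, and Hsp68 for Ycongo in testis. In male body they were Hsp23 and Hsp68 for Ycongo and Hsp23 for Ycongo against Yohio, and in female body Hsp26 for Yohio. The share of all genes at that threshold is not given for these comparisons, so these values are a description and no result about the 8 genes. In larval CNS, Hsp68 had 24.2 and 13.0 CPM in XXYohio, 26.4 and 19.8 CPM in XXYcongo, and 13.1 and 14.3 CPM in XX. The XXYcongo libraries lay above the XX ones (log2 0.77, SE 0.30; adjusted p = 0.855, edgeR) and the XXYohio libraries overlapped them (log2 0.45, SE 0.30; adjusted p = 0.862). Hsp23, the most abundant small heat shock protein transcript there, had log2 fold changes of -0.15 and -0.08. Hsp26 and Hsp67Ba were below both XX libraries in all 4 CNS libraries with a Y, as were 9.64% of all genes, by -0.52 and -0.31 for Hsp26 and by -0.21 and -0.06 for Hsp67Ba.

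In testis, Hsp68 was above both XY libraries in all 4 libraries with an added Y, as were 5.26% of all genes, with log2 fold changes of 0.46 for Yohio and 0.57 for Ycongo (SE 0.22 each; adjusted p = 0.974 and 1.00, edgeR). Hsp26 had 138 and 161 CPM in XYYohio, 70.7 and 129 CPM in XYYcongo, and 108 and 66.2 CPM in XY testes. The XYYohio pair lay above both XY libraries and the XYYcongo pair overlapped them (log2 0.78, SE 0.35, adjusted p = 0.974 for Yohio; log2 0.20, adjusted p = 1.00 for Ycongo, edgeR). The other 6 genes had log2 fold changes between -0.61 and 0.80.

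In male bodies, Hsp67Ba had 12.1 and 12.2 CPM in XYYohio, 18.2 and 8.64 CPM in XYYcongo, and 6.28 and 6.91 CPM in XY bodies, so all 4 libraries with an added Y were above both controls, as were 2.70% of all genes (log2 0.90 and 1.04, SE 0.49 and 0.48; adjusted p = 1.00 and 0.659, edgeR). Hsp22 was below both controls in all 4, as were 3.40% of all genes, at log2 -0.41 and -0.60. Hsp68 had log2 fold changes of -0.11 for Yohio and -1.15 for Ycongo, and Hsp23 of 0.41 and -1.08 (adjusted p = 0.656 for both Ycongo values, edgeR). XYYcongo body replicate 2 had 40.11% mitochondrial counts and the lowest Hsp83 of all libraries, 1117 CPM against 2496 CPM in replicate 1.

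In female bodies, Hsp26 had 132 and 370.3 CPM in XXYohio, 159 and 139 CPM in XXYcongo, and 97.6 and 124 CPM in XX. All 4 libraries with a Y were above both controls, as were 8.03% of all genes, and XXYohio replicate 2 was far above the rest (log2 1.26, SE 0.51, adjusted p = 0.521 for Yohio; log2 0.44, adjusted p = 0.911 for Ycongo, edgeR). That library also had the highest Hsp83 of the female bodies, 5203 CPM. Muscle markers summed to 1823 and 2841 CPM in XXYohio, 4536 and 3025 CPM in XXYcongo, and 6299.7 and 8165 CPM in XX bodies. Photoreceptor markers summed to 707 and 713 CPM in XXYohio, 725 and 843 CPM in XXYcongo, and 1349.8 and 1734 CPM in XX bodies. Follicle cell and eggshell markers, from the ovary where Hsp26 is highest, summed to 581 and 1488 CPM in XXYohio, 1477 and 908 CPM in XXYcongo, and 732 and 741 CPM in XX bodies, with the highest sum in XXYohio replicate 2. The part of these markers in the difference was not tested. Hsp68 had log2 fold changes of -0.91 and -1.13, on 8 to 33 counts with a Y and 32 and 81 in XX. Hsp67Bc, with 1 to 6 counts in the libraries with a Y and 8 in each XX library, was below the filter on low counts, so 7 of the 8 genes were tested there.

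Whether an added Y acted differently on a gene in 2 tissues was tested in 1 model over all 30 libraries. By edgeR 0 of the 8 genes were called in any of 6 such differences, nor was any other gene (0% of 14384). The largest was that of Hsp68 between ovary and larval CNS, -2.94 for Yohio (SE 0.72; unadjusted p = 0.000558, adjusted p = 0.408, edgeR) and -3.25 for Ycongo (SE 0.73; unadjusted p = 0.000217, adjusted p = 0.236). DESeq2 called this difference for both, with adjusted p = 0.0336 and 0.00857. Between ovary and female body the Hsp68 differences were -1.51 and -1.37 (adjusted p = 0.550 and 0.577, edgeR), and ovaries are part of the female body.

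The genes whose levels over the 15 group means followed each member most closely, by Pearson's r of log2 CPM among 8541 genes (8542 for Hsp67Bc), were picked as a description, since groups of 1 tissue share a sample type. Hsp23 was nearest to TBPH (r = 0.977), the fly TDP-43 homolog, then to lncRNA:cherub and Obp44a (0.974 each). Hsp67Ba was nearest to its antisense partner (0.990), then Wnt4 and lncRNA:cherub (0.983 and 0.982), and Hsp67Bc to Hsp67Ba (0.975), Wnt4 (0.974) and asRNA:CR45712 (0.967). For Hsp27 they were SmD1, a core splicing protein (0.986), Rrp1 (0.977) and CstF50 (0.975). Hsp26 was nearest to CG1620 (0.976), the histone chaperone gene Hira (0.966) and Ranbp21 (0.965), and Hsp83 to CG2129, wdn and Lint-O (0.975, 0.964 and 0.961).

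For Hsp68 the nearest were the testis proteasome subunit Rpt3R (0.979), Atat (0.971) and CG31068 (0.967), and for Hsp22 the overlapping CG4456 (0.998), hmw (0.959) and CG11475 (0.957). Among the 8 themselves the closest pairs were Hsp67Ba with Hsp67Bc (0.98), Hsp23 with Hsp67Bc (0.97) and with Hsp67Ba (0.95), Hsp26 with Hsp83 (0.94) and Hsp22 with Hsp68 (0.81). The most opposed pair was Hsp68 and Hsp83 (-0.71). With Spearman's rho in place of Pearson's r, 3 of the 24 nearest genes were the same.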

How the data were processed

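Per the labels, polyadenylated RNA was sequenced from 30 fly samples. The authors deposited raw counts per gene for each library, and a table of their own comparisons with log2 fold changes and adjusted p-values. Trim Galore, Bowtie2, SAMtools, DESeq2 1.8.1 and R 3.2.3 are named in the submitters' processing notes, and the sources used here give no genome build, counter or strand setting. The 8 genes, gene lists and marker lists were chosen with earlier results of these data known.

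Counts were fitted as deposited with edgeR 4.0.16 in R 4.3.3 (quasi-likelihood test, TMM scaling, edgeR's filter at a minimum count of 10, Benjamini-Hochberg adjustment over all genes tested, called at adjusted p under 0.05). Each tissue and sex was fitted on its 6 libraries with 3 residual degrees of freedom, giving 10 comparisons of an added Y with its control and 5 of Ycongo with Yohio. Tissues, and differences of the Y effect between tissues, were tested in 1 fit of all 30 libraries. An exact permutation test of 2 against 2 libraries cannot go below p = 0.333 and was not used. Gene names came from the files' FlyBase IDs (16648 of 16868 matched), and exon lengths and overlaps from the BDGP6 annotation of Ensembl. Levels of single genes are CPM, with a detection limit of 3 counts per library, which covers counting error only.

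Named genes were the 8 members, fixed chaperone and ecdysone lists, and the 3 genes most like each member over the group means (mean log2 CPM of at least 2, prior count 2). On data simulated for the ovary comparisons, 82% of 4-fold and 10% of 2-fold changes were recovered among 8778 genes. Changes were planted only in genes of higher counts, and all genes were given 1 common spread. The recovery therefore does not apply to genes of low counts such as Hsp67Bc and Hsp23 in ovary. No 2 libraries were identical. The alternatives were DESeq2 1.42.0, relative log expression scaling, no filter, no mitochondrially encoded genes, a replicate block, each library left out, only the libraries compared, and control genotypes only. Promoter motifs were not analysed here.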

Additional observations from a re-analysis of the deposited data

Results flagged for a closer look

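The values here are differences of log2 fold changes between 2 tissues under the same added Y, where every library with the Y lay on 1 side of its controls in the first tissue and on the other side in the second. None of the differences given here was tested, and comparisons with Yohio and Ycongo share their control libraries. The share of all genes that meet this rule is not given. In ovary alone, 23.8% of all genes for Yohio and 18.5% for Ycongo were lower with no overlap between libraries. The pairs below are therefore a description and no result about the genes named.

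Hsp68 gave 5 such pairs. For ovary and testis the difference was -2.93 under Yohio (-2.47 in ovary, 0.46 in testis) and -3.03 under Ycongo (-2.46 in ovary, 0.57 in testis). Under Ycongo, female body differed from CNS by -1.90 (-1.13 and 0.77) and from testis by -1.71 (-1.13 and 0.57), and CNS differed from male body by 1.92 (0.77 and -1.15).

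Hsp22 differed by -2.33 between ovary and testis under Yohio (-1.90 and 0.43), Hsp67Bc by -3.34 between ovary and testis under Ycongo (-2.54 and 0.80), and Hsp83 by -0.52 between ovary and testis under Yohio (-0.24 and 0.28). The ovary value of Hsp67Bc rests on 4 to 7 counts per library with a Y, and the gene passed the filter there only through the XX libraries.

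Hsp26 had positive values in female body and negative ones in CNS, with differences of 1.78 under Yohio (1.26 and -0.52) and 0.75 under Ycongo (0.44 and -0.31). It also differed by -1.29 between CNS and testis under Yohio (-0.52 and 0.78) and by 1.27 between female and male body under Ycongo (0.44 and -0.82).

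Hsp67Ba, positive in male body, differed by -1.10 between CNS and male body under Yohio (-0.21 and 0.90). Under Ycongo it differed from male body (1.04) by -1.27 in female body (-0.23), by -1.40 in ovary (-0.35) and by -1.10 in CNS (-0.06). Its counts cannot be told apart from those of its antisense partner.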

How the results depend on the processing

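No value of the 8 genes that passed the test changed sign under any alternative run. In ovaries 0 genes were called for either Y. Without the filter on low counts 2 were called for each Y, with DESeq2 1 for Yohio and 2 for Ycongo, and with only the 4 libraries compared 2 for Yohio and 0 for Ycongo. Leaving out single libraries gave 0 to 2 for Yohio and 0 to 3 for Ycongo. All of these were lower, and the cause of the changes was not tested. DESeq2 called 1 difference between ovary and CNS for Yohio and 1 for Ycongo. Adjusted p over the alternatives ran from 0.00279 to 1.00 (Yohio) and 0.00145 to 0.656 (Ycongo) for Hsp68, and from 0.00506 to 1.00 and 6.89e-07 to 0.878 for Hsp22. Over all genes tested in ovary for Ycongo, 25 were called, against 185 with DESeq2, 266 with no filter, 3 without mitochondrial genes and 496 without XXYcongo replicate 1. For Yohio 1 was called, against 23 with DESeq2, 96 with no filter and 45 with the 4 libraries. In the other added-Y comparisons 0 of the 8 were called under every alternative run.

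Replicate numbers did not pair the libraries in a consistent way: correlations of replicate differences between groups ran from -0.36 to 0.45, and 0.02 to 0.13 in ovary. In bodies they were 0.45 for XX with XXYohio, 0.38 for XX with XXYcongo and 0.45 for XY with XYYohio. The remaining body values ran from -0.30 to -0.10. With the replicate number as a block, 2 genes were called for Ycongo in ovary, Hsp22 and Hsp68, and 80 genes in all.

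Between tissues, control genotypes alone gave 5 calls for ovary against female body (3 with all genotypes), 2 for testis against male body (6), 5 for ovary against testis (8) and 5 for male against female body (8), with fewer libraries in each. Leaving out single libraries gave 3 to 4, 5 to 7, 8 and 8 calls for these, 5 to 6 for CNS against female body and 7 to 8 for CNS against ovary. With Spearman's rho 3 of the 24 most alike genes were shared. Genes under 10 counts per library, such as Hsp67Bc in female bodies and in ovaries with a Y, are limited by depth.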
